A study of Mus musculus with 20 samples.

Results

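The pentose phosphate pathway was followed through 7 enzyme genes in RNA-seq libraries of mouse TH17 cells, the CD4 T helper cells that make interleukin-17. The genes were taken by name as the enzymes of the pathway and are 7 of 24862 gene rows in the count tables. G6pdx, Pgls and Pgd form the oxidative arm, and Rpia, Rpe, Tkt and Taldo1 form the non-oxidative arm. All 7 were found in every table.

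The study, by its title, asks about glycolysis in pathogenic TH17 cells and about the microRNA miR-21, the ubiquitin ligase Peli1 and the NF-κB subunit c-Rel. Its 12 RNA libraries form 6 groups with 2 replicates each, set against each other in 3 matched pairs, and all mice carried the label C57BL/6. In the first pair, 50000 GFP+ cells a library were sorted from central nervous system (CNS) suspensions and set against the same number of GFP+ cells from the ileum. The sources used here do not say what the GFP reports or how CNS infiltration was brought about. In the second pair, naive CD4 cells grown with 2 ng/ml TGF-β1 and 20 ng/ml IL-6, called TH17(β), received either Ad-c-Rel, which overexpresses c-Rel, or Ad-control. In the third pair, naive CD4 cells of miR-21-/- or control mice were grown with 20 ng/ml each of IL-6, IL-1β and IL-23, called TH17(23). All cultures were stimulated with antibodies to CD3ε and CD28, with IL-4 and IFN-γ blocked. The miR-21 deletion is not said to be limited to T cells, ages are not given, and nothing ties replicates to separate mice or dishes, so p-values measure the spread between these libraries, which may be technical.

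The oxidative arm takes glucose 6-phosphate out of glycolysis and makes NADPH, the electron donor for lipid synthesis and for the glutathione and thioredoxin systems, and ribulose 5-phosphate. The non-oxidative arm is reversible: it turns ribulose 5-phosphate into ribose 5-phosphate for nucleotides, or passes carbon back to glycolysis as fructose 6-phosphate and glyceraldehyde 3-phosphate. Activated T cells are known to draw on the pathway as they grow and divide.

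In RefSeq, build GRCm38.p6, G6pdx lies at chrX:74409483-74428880, Pgls at chr8:71592184-71596267, Pgd at chr4:149149991-149166705, Rpia at chr6:70765720-70792175, Rpe at chr1:66700797-66719805, Tkt at chr14:30549131-30574724 and Taldo1 at chr7:141392160-141402976. The whole of the G6pdx span falls inside that of Ikbkg, and 563 bases of Rpe overlap Kansl1l. The strand setting of the counting is not given, so reads in shared exons cannot be assigned with certainty. The other 5 genes overlap no annotated protein-coding neighbour, and non-coding genes were not searched.

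The promoters of the oxidative arm are shown because its genes carry the differences described further on. Each run gives, 5′ to 3′ on the gene's strand, the 250 bases before the RefSeq start, with matches to the motifs searched in capitals. They lie at chrX:74428881-74429130 on the minus strand, chr8:71591934-71592183 on the plus strand and chr4:149166706-149166955 on the minus strand.
G6pdx: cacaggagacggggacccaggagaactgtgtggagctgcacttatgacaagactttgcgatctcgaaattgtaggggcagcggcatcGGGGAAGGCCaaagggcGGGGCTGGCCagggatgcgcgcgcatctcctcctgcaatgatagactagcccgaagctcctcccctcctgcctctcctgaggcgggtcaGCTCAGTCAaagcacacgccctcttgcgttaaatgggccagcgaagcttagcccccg
Pgls: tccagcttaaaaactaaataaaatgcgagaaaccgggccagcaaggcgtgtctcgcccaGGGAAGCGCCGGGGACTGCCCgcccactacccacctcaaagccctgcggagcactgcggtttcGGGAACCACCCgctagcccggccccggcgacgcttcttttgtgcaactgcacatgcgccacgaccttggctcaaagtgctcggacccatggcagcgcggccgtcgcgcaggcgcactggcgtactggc
Pgd: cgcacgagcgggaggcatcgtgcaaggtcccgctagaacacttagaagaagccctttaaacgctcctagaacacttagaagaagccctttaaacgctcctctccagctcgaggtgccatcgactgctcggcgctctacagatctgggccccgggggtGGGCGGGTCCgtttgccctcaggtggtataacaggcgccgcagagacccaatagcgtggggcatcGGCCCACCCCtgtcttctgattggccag

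On both strands, 3 motifs were searched. The core of the antioxidant response element, TGACNNNGC, is read by Nrf2. It was present in 1 of 7 member promoters, that of G6pdx, at bases 57 to 49 before the start on the opposite strand, and in 10.2% of all 32851 promoters of this length. The E-box CACGTG, read by Myc among others, was in 0 of 7 member promoters and in 6.02% of all. The κB core, GGG and CC with any 5 bases between them and a loose form of the site read by NF-κB subunits such as c-Rel, was in 5 of 7 (all but Rpia and Taldo1) and in 45.8% of all. In Pgls the κB matches partly overlap each other. A match describes the letters and is not evidence of binding.

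Levels are given in CPM, a gene's counts set to a common library total and scaled by the trimmed mean of M-values (TMM) of each pair. Gene counts summed to between 1.54e+07 and 3.67e+07 a library. Rel, the gene of c-Rel, had 1011 and 1017 counts in Ad-c-Rel cells and 167 and 140 in Ad-control cells. Mir21a had 0 counts in both miR-21-/- libraries, against 25 and 20 in control libraries. The summed level of the TH17 genes Il17a, Il17f, Il23r and Ccr6 was 138 to 167 CPM in CNS libraries and 8503 to 9404 CPM in ileum libraries, 6581 to 6608 CPM in Ad-c-Rel and 3218 to 3563 CPM in Ad-control, and 125 to 427 CPM in miR-21-/- and 1205 to 1722 CPM in control. With edgeR 4 of 4 were lower in CNS libraries, 4 of 4 higher in Ad-c-Rel cells and 0 of 4 called in miR-21-/- cells, and none of the 4 was at 0 in any group. CNS replicate 2 and ileum replicate 2 held fewer genes with a count, 11545 and 10771, than the first replicates with 14224 and 13927.

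The libraries labelled CNS held about 3 times the ileum level of Pgls and Pgd, the enzymes that follow the entry step of the oxidative arm, while the entry enzyme G6pdx was not called. Markers go against a pure TH17 content of these libraries: the microglia gene Tmem119 had 376 CPM in both CNS libraries and 0.0671 and 0.124 CPM in ileum libraries, and P2ry12 had 216 and 210 CPM in CNS and 3.82 and 0.0619 CPM in ileum libraries, beside the low TH17 sum. The levels are those of the whole library and are not shown for TH17 cells alone. In the non-oxidative arm Rpe, Tkt and Taldo1 were above ileum in both CNS libraries, but none passed the adjusted test. With edgeR's quasi-likelihood test and Benjamini-Hochberg adjustment over all genes at 0.05, 2 of 7 members were called, both higher, against 9.66% of 12038 genes called in either direction (482 higher and 681 lower). For 5 of 7 members both CNS libraries lay above both ileum libraries, as for 32.3% of all genes. The members' median log2 fold change was 0.70, and that of all genes 0.08.

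G6pdx, the entry enzyme, makes the first NADPH and sets the flow into the pathway. It had 124 and 78.8 CPM in CNS libraries, against 104 and 137 CPM in ileum libraries. The groups overlapped, and the highest value was an ileum one. The log2 fold change was -0.25 with a standard error (SE) of 0.301 and an edgeR adjusted p of 0.698.

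Pgls, 6-phosphogluconolactonase, opens the lactone that G6pdx makes. It had 71.0 and 105 CPM in CNS libraries, against 32.3 and 26.4 CPM in ileum libraries. Both CNS libraries stood clear of both ileum libraries. The log2 fold change was 1.58 (SE 0.329, edgeR adjusted p = 0.0434). The call ended without CNS replicate 1 (edgeR adjusted p = 0.0509), CNS replicate 2 (0.229) or ileum replicate 2 (0.0986).

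Pgd, 6-phosphogluconate dehydrogenase, makes the second NADPH and ribulose 5-phosphate. Its level was 150 and 121 CPM in CNS libraries and 49.7 and 39.5 CPM in ileum libraries. The lower CNS value was still far above the higher ileum value. The fold change was 3.03, log2 1.60 (SE 0.260, edgeR adjusted p = 0.0218). Without CNS replicate 1 the adjusted p was 0.0729, and without ileum replicate 2 it was 0.0538. The counts of Pgd stood to those of G6pdx as 1.21 and 1.53 to 1 in CNS libraries, against 0.477 and 0.289 in ileum libraries. This ratio, which takes no scaling between libraries, was above 1 in both CNS libraries and below 1 in both ileum libraries.

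Rpia, ribose-5-phosphate isomerase, makes the sugar for nucleotides. It was near the floor here, at 1.43 and 1.18 CPM in CNS libraries and 0.939 and 3.28 CPM in ileum libraries. The 50 counts over both CNS libraries and the 67 over both ileum libraries could not show a difference (log2 -0.69, SE 1.82, edgeR adjusted p = 0.879).

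Rpe, the epimerase that makes xylulose 5-phosphate, had 43.6 and 44.2 CPM in CNS libraries, against 25.3 and 18.1 CPM in ileum libraries. The groups did not overlap, yet the log2 fold change of 1.01 (SE 0.378) had an edgeR adjusted p of 0.183. Tkt, transketolase, moves carbon pairs between sugars. It had 157 and 169 CPM in CNS libraries and 143 and 92.0 CPM in ileum libraries, and the ileum libraries spread widely (log2 0.47, SE 0.264, edgeR adjusted p = 0.361).

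Taldo1, transaldolase, works beside Tkt. It had 236 and 312 CPM in CNS libraries, against 160 and 178 CPM in ileum libraries. The groups were apart (log2 0.70, SE 0.199, edgeR adjusted p = 0.0995). DESeq2, on the same genes, called Taldo1 (adjusted p = 0.00497) and Rpe (0.00377) as well as Pgls and Pgd, against 29.5% of all genes called by DESeq2 in either direction.

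Summed over the arm, the oxidative genes reached 344 and 304 CPM in CNS libraries and 186 and 203 CPM in ileum libraries. The non-oxidative genes reached 438 and 526 CPM in CNS libraries and 329 and 291 CPM in ileum libraries. Both sums lay above ileum in both CNS libraries. The oxidative share of the pathway's counts was 44.0% (exact binomial 95% interval 43.2 to 44.8) and 36.6% (35.9 to 37.4) in CNS libraries, against 36.1% (35.0 to 37.2) and 41.0% (39.9 to 42.1) in ileum libraries. The shares crossed, so the balance of the arms did not separate the tissues; these intervals cover counting error only.

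Markers of other cells moved with the tissue. All 16 markers of myeloid cells and microglia were higher in CNS libraries (edgeR), with a summed level of 24350 to 25540 CPM in CNS and 3168 to 3305 CPM in ileum libraries, and none of the 16 was at 0 in either tissue. Of 11 T cell identity genes tested, 3 were lower, with a sum of 4874 to 5123 CPM in CNS and 6539 to 6987 CPM in ileum libraries. B and plasma cell genes summed to 1.57 to 9.78 CPM in CNS and 3644 to 3824 CPM in ileum libraries, with 3 of 5 tested lower and Ms4a1 and Pax5 at 0 counts in CNS libraries. Epithelial genes summed to 13.8 to 16.1 CPM in CNS and 0 to 13.3 CPM in ileum libraries, and oligodendrocyte and neuron genes to 84.5 to 106 CPM in CNS and 87.2 to 113 CPM in ileum libraries, with 0 called in both lists. Cell cycle genes summed to 635 to 707 CPM in CNS and 791 to 1053 CPM in ileum libraries, with 0 of 10 called. The part of these cells in the Pgls and Pgd differences was not tested, and in bulk RNA fewer cells of a type and less RNA per cell cannot be told apart. Scaled to the summed T cell identity genes, the median of all genes moved to 0.52, and the calls over all genes split into 920 higher and 384 lower. Pgls (log2 2.02, edgeR adjusted p = 0.0156) and Pgd (2.04, 0.00883) moved up with all genes and stayed called. Such scaling takes out no RNA of other cells, so it cannot show their part in the Pgls and Pgd differences. Under that scaling G6pdx stood at log2 0.19 (edgeR adjusted p = 0.778), below that median, and Taldo1 was called at log2 1.12 (0.0231).

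**Figure D1:**
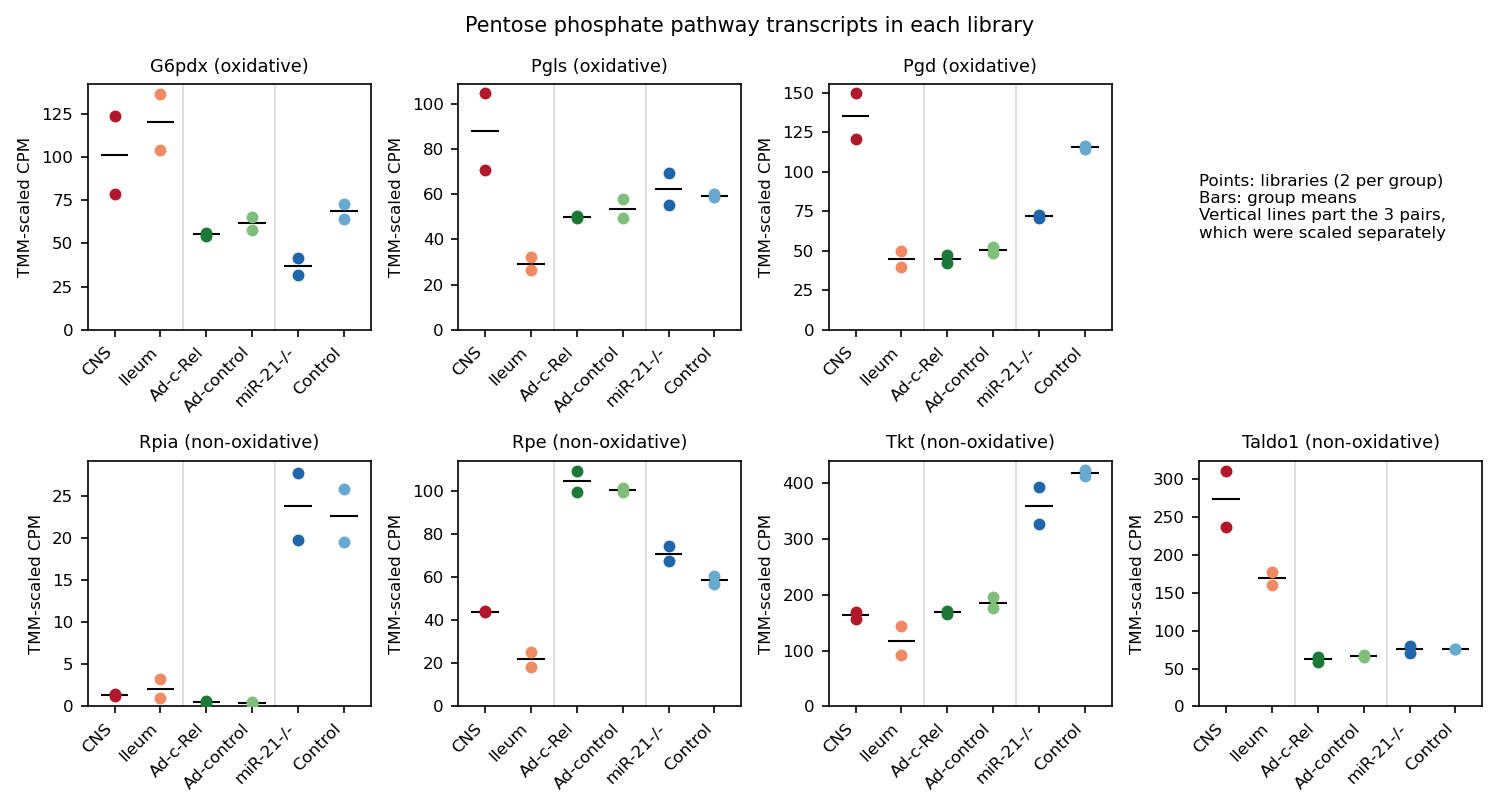
Levels of the 7 enzymes in each of the 12 libraries, in TMM-scaled CPM on axes that start at 0, 1 panel a gene, with 1 point a library and a bar at the group mean. Pgls and Pgd lie apart in CNS and ileum libraries, G6pdx and Pgd lie lower in both miR-21-/- libraries than in both control libraries, and Rpia stays under 4 CPM outside the TH17(23) cultures.

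Around the pathway the tissue difference was mixed, with list counts to be read beside the 9.66% of all genes called in either direction. Of 15 genes that use ribose 5-phosphate for PRPP and nucleotide synthesis, 0 were higher and 2 lower. Their median log2 fold change was 0.30, and that of all genes 0.08. Impdh2, which commits IMP to guanine nucleotides, had 71.9 and 62.2 CPM in CNS libraries, against 154 and 141 CPM in ileum libraries (log2 -1.14, edgeR adjusted p = 0.0321). Prps1, which makes PRPP from ribose 5-phosphate, had 67.7 and 45.4 CPM in CNS libraries, against 128 and 155 CPM in ileum libraries (log2 -1.33, edgeR adjusted p = 0.0484). Both were lower in each CNS library, the opposite direction to Pgls and Pgd. The Impdh2 call ended without CNS replicate 2 (edgeR adjusted p = 0.0857), ileum replicate 1 (0.0664) or ileum replicate 2 (0.0677), and that of Prps1 without CNS replicate 2 (0.0994) or ileum replicate 2 (0.119). With T cell scaling neither was called (edgeR adjusted p of 0.119 and 0.142).

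The other neighbour lists held few calls. Of 9 side-branch and paralog genes tested, 0 were called, with a median log2 fold change of 1.11. The 2 of smallest p were Pgm2, of the phosphoglucomutase family and a symbol exchanged with Pgm1 between mouse annotations, at 57.4 and 49.5 CPM in CNS and 27.2 and 22.4 CPM in ileum libraries (edgeR adjusted p = 0.114), and H6pd, the dehydrogenase of the endoplasmic reticulum, at 20.3 and 6.97 CPM in CNS and 2.62 and 1.86 CPM in ileum libraries (edgeR adjusted p = 0.210). Of 10 other NADPH sources and NAD kinases, 0 were called, with a median log2 fold change of 0.50. Idh2, the mitochondrial NADP isocitrate dehydrogenase, had 50.7 and 45.5 CPM in CNS and 24.8 and 9.23 CPM in ileum libraries (edgeR adjusted p = 0.183). Aldh1l1, a folate enzyme, had 69 and 116 counts in CNS and 0 in both ileum libraries, and was not called either (edgeR adjusted p = 0.115).

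Of 16 glutathione and thioredoxin genes, 0 were called, with a median log2 fold change of 0.09. Gsr, glutathione reductase, had 138 and 171 CPM in CNS and 84.5 and 71.1 CPM in ileum libraries (edgeR adjusted p = 0.0568). Gpx4, the lipid peroxidase, had 219 and 286 CPM in CNS and 392 and 529 CPM in ileum libraries (edgeR adjusted p = 0.0737). Of 10 regulators, 1 was higher and 1 lower, beside 9.66% of all genes called in either direction, with a median log2 fold change of -0.15. Keap1, the Nrf2 inhibitor, was higher at 76.0 and 94.0 CPM in CNS libraries, against 25.0 and 34.4 CPM in ileum libraries (edgeR adjusted p = 0.0437). Hif1a, the hypoxia factor, was lower at 878 and 776 CPM in CNS libraries, against 1790 and 1374 CPM in ileum libraries (edgeR adjusted p = 0.0278). The Keap1 call ended without CNS replicate 1 (edgeR adjusted p = 0.0928), CNS replicate 2 (0.209) or ileum replicate 1 (0.0695), and that of Hif1a with T cell scaling (0.112).

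In TH17(β) cells the c-Rel construct moved none of the pathway enzymes past the test. Of 6 members tested with edgeR, 0 were called, against 14.3% of 11711 genes called in either direction. At an unadjusted p under 0.05 the members also gave 0 calls (28.6% of all genes), and DESeq2 gave 0 (9.38%). For 4 of 6 both Ad-c-Rel libraries lay below both Ad-control libraries, as for 28.7% of all genes. The log2 fold changes ran from -0.18 to 0.05, with a median of -0.12 against -0.01 for all genes.

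In the oxidative arm, G6pdx had 56.0 and 54.4 CPM in Ad-c-Rel cells, against 65.5 and 57.9 CPM in Ad-control cells (log2 -0.16, SE 0.0919, edgeR adjusted p = 0.277). Pgls had 50.6 and 49.6 CPM in Ad-c-Rel cells, against 57.7 and 49.6 CPM in Ad-control cells (log2 -0.10, SE 0.0971, edgeR adjusted p = 0.556). Pgd had 47.3 and 42.1 CPM in Ad-c-Rel cells, against 52.3 and 48.9 CPM in Ad-control cells (log2 -0.18, SE 0.0965, edgeR adjusted p = 0.249). Neither G6pdx nor Pgd overlapped between the groups, with gaps between the groups narrower than the distance between the Ad-control replicates, and Pgls overlapped.

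In the non-oxidative arm, Rpe had 99.3 and 109 CPM in Ad-c-Rel cells, against 99.4 and 101 CPM in Ad-control cells (log2 0.05, SE 0.0811, edgeR adjusted p = 0.708). Tkt had 172 and 165 CPM in Ad-c-Rel cells, against 195 and 177 CPM in Ad-control cells (log2 -0.14, SE 0.0783, edgeR adjusted p = 0.252). Taldo1 had 58.9 and 65.4 CPM in Ad-c-Rel cells, against 65.7 and 67.9 CPM in Ad-control cells (log2 -0.11, SE 0.0885, edgeR adjusted p = 0.467). Tkt and Taldo1 were the other pair without overlap, again by less than the distance between the Ad-c-Rel replicates. Rpia was left out of the test by the filter on low counts, with 18 counts over both Ad-c-Rel libraries and 16 over both Ad-control libraries.

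The oxidative sum was 154 and 146 CPM in Ad-c-Rel cells, against 175 and 156 CPM in Ad-control cells. The non-oxidative sum was 331 and 340 CPM in Ad-c-Rel cells, against 361 and 346 CPM in Ad-control cells. Both sums lay slightly below Ad-control, and the oxidative share of counts, 31.8% and 30.1% in Ad-c-Rel and 32.7% and 31.1% in Ad-control cells, overlapped. Cell cycle genes moved with the construct: 8 of 10 were lower in Ad-c-Rel cells (edgeR), with a sum of 489 to 514 CPM in Ad-c-Rel and 815 to 863 CPM in Ad-control cells. Their part in the members' values was not tested. Myeloid markers summed to 183 CPM in both Ad-c-Rel libraries and 184 to 192 CPM in Ad-control libraries, with C1qa, C1qb and C1qc at 0 in both groups. Of the 6 tested with edgeR, 2 were higher and 1 lower in Ad-c-Rel cells, beside 14.3% of all genes called in either direction. Tmem119 was among the higher, at 14.7 and 13.0 CPM in Ad-c-Rel and 5.15 and 4.88 CPM in Ad-control cells.

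Single genes beside the pathway did pass the test in Ad-c-Rel cells, where edgeR called 14.3% of all genes in either direction. That share is the background for the list counts given here and below. Among 8 side-branch genes 0 were higher and 1 lower: Shpk, which makes sedoheptulose 7-phosphate, had 9.14 and 7.74 CPM in Ad-c-Rel and 13.1 and 12.4 CPM in Ad-control cells (edgeR adjusted p = 0.0152). Its call ended without Ad-c-Rel replicate 2 (edgeR adjusted p = 0.118) or Ad-control replicate 1 (0.0875), and with DESeq2 (0.0692). Among 15 genes of ribose 5-phosphate use, 1 was higher and 2 lower. The purine synthesis gene Paics was lower, at 234 and 235 CPM in Ad-c-Rel and 297 and 296 CPM in Ad-control cells (log2 -0.34, edgeR adjusted p = 0.00514), and kept its call without any single library. Prps2, a second PRPP synthetase, was lower at 47.9 and 50.5 CPM in Ad-c-Rel and 63.4 and 62.6 CPM in Ad-control cells (edgeR adjusted p = 0.0133), a call lost without Ad-c-Rel replicate 1 (0.108) or Ad-control replicate 1 (0.0573). Gart, a purine synthesis enzyme, was higher at 66.0 and 64.6 CPM in Ad-c-Rel and 52.2 and 55.5 CPM in Ad-control cells (edgeR adjusted p = 0.0453). Leaving out any of the 4 libraries ended the Gart call, with adjusted p from 0.0579 to 0.206 in edgeR, and DESeq2 did not make it (0.100).

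The NADPH list held 1 higher and 2 lower genes of 11 in Ad-c-Rel cells. Idh1, the cytosolic NADP isocitrate dehydrogenase, was lower at 51.9 and 58.3 CPM in Ad-c-Rel and 70.5 and 80.6 CPM in Ad-control cells (edgeR adjusted p = 0.00475). Idh2 was lower at 57.7 and 59.2 CPM in Ad-c-Rel and 74.0 and 73.2 CPM in Ad-control cells (edgeR adjusted p = 0.0149). Mthfd2, a mitochondrial folate dehydrogenase that works mainly with NAD, was higher at 67.2 and 71.5 CPM in Ad-c-Rel and 51.1 and 53.2 CPM in Ad-control cells (edgeR adjusted p = 0.00530). The Idh1 call ended without Ad-control replicate 2 (edgeR adjusted p = 0.0546), that of Mthfd2 without Ad-c-Rel replicate 2 (0.0665), and that of Idh2 without Ad-c-Rel replicate 1 (0.0986), Ad-c-Rel replicate 2 (0.0640) or Ad-control replicate 1 (0.0590).

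Of 15 glutathione and thioredoxin genes, 1 was higher and 1 lower. Srxn1, sulfiredoxin, which restores oxidised peroxiredoxins, had 13.7 and 11.6 CPM in Ad-c-Rel cells, against 5.78 and 5.72 CPM in Ad-control cells. Both Ad-c-Rel values were about 2 times the Ad-control values (log2 1.14, SE 0.161, edgeR adjusted p = 0.000163), and the call was kept without any single library. Cat, catalase, was lower at 95.1 and 100.3 CPM in Ad-c-Rel and 115 and 132 CPM in Ad-control cells (edgeR adjusted p = 0.0155), which was lost without Ad-c-Rel replicate 1 (0.0909) or Ad-control replicate 2 (0.107). Among 9 regulators, 1 was higher: Sirt2, a protein deacetylase, with 121 and 126 CPM in Ad-c-Rel and 101 and 102 CPM in Ad-control cells (edgeR adjusted p = 0.0210). That call ended without Ad-c-Rel replicate 1 (edgeR adjusted p = 0.0611), Ad-c-Rel replicate 2 (0.205) or Ad-control replicate 1 (0.0722). With all 12 libraries in 1 edgeR fit, none of the 10 neighbouring genes named as called in Ad-c-Rel cells passed the test. Over all 13815 genes, that fit called only 18 higher and 1 lower in Ad-c-Rel cells, so the loss is not particular to these genes.

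In miR-21-/- TH17(23) cells both NADPH-making dehydrogenases, G6pdx and Pgd, were below control in each library, at 0.537 and 0.623 times the control level, and neither passed the adjusted edgeR test. No gene at all was called in this comparison, 0 of 13428 (percent called 0). At an unadjusted p under 0.05 with edgeR, 2 of 7 members were lower, against 11.4% of all genes. DESeq2 called 2 of 7 members, G6pdx and Pgd, and 5.91% of all genes. Both miR-21-/- libraries lay below both control libraries for 3 of 7 members (28.9% of all genes) and above them for 1 of 7 (27.0%). The members' median log2 fold change was -0.02, as was that of all genes. The miR-21 locus gives the mature forms miR-21a-3p, not shown, and miR-21a-5p, and the label does not name a form. The miR-21a-5p form, at chr11:86584120-86584141 on the minus strand, is shown with its seed, bases 2 to 8, in capitals.
miR-21a-5p: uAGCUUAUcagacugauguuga

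G6pdx had 41.6 and 31.9 CPM in miR-21-/- cells, against 72.9 and 64.2 CPM in control cells. The gap between the groups was wider than that between the replicates of either. The log2 fold change was -0.90 (SE 0.170, edgeR adjusted p = 0.125); DESeq2 gave -0.88 with an adjusted p of 0.00343. Pgd had 71.0 and 72.8 CPM in miR-21-/- cells, against 115 and 116 CPM in control cells. Replicates differed by less than 2 CPM in either group, and the log2 fold change was -0.68 (SE 0.115, edgeR adjusted p = 0.124; DESeq2 -0.67, adjusted p = 0.00718). Without miR-21-/- replicate 1 edgeR called both genes (adjusted p of 0.0205 for G6pdx and 0.0453 for Pgd) and 9.62% of all genes, while leaving out any other library called neither.

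Pgls, between these steps, had 55.4 and 69.5 CPM in miR-21-/- cells, against 60.1 and 58.8 CPM in control cells. It overlapped, with a log2 fold change of 0.07 (SE 0.149, edgeR adjusted p = 0.806). The Pgd to G6pdx count ratio was 1.71 and 2.28 in miR-21-/- cells and 1.57 and 1.81 in control cells, which overlap.

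In the non-oxidative arm, Rpia had 27.8 and 19.8 CPM in miR-21-/- cells, against 25.8 and 19.5 CPM in control cells (log2 0.07, SE 0.234, edgeR adjusted p = 0.884). Rpe had 67.2 and 74.2 CPM in miR-21-/- cells, against 60.2 and 56.9 CPM in control cells (log2 0.27, SE 0.122, edgeR adjusted p = 0.272). It was the member that lay above control in both libraries. Tkt had 326 and 392 CPM in miR-21-/- cells, against 413 and 423 CPM in control cells (log2 -0.22, SE 0.157, edgeR adjusted p = 0.443). Taldo1 had 70.2 and 80.1 CPM in miR-21-/- cells, against 75.9 and 76.4 CPM in control cells (log2 -0.02, SE 0.126, edgeR adjusted p = 0.942). Rpia and Taldo1 overlapped between the groups, and Tkt lay below control in both libraries.

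**Figure D2:**
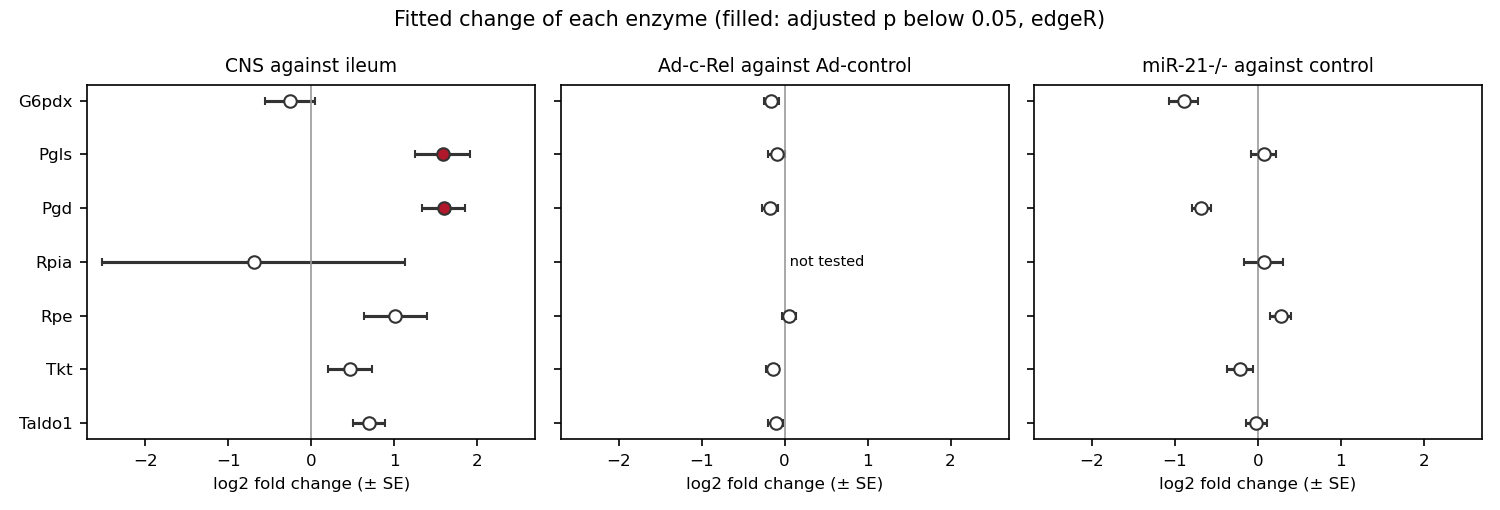
Log2 fold change of each enzyme in the 3 comparisons (CNS over ileum, Ad-c-Rel over Ad-control, miR-21-/- over control), with error bars of 1 SE from edgeR and filled points for an adjusted p under 0.05. Pgls at 1.58 and Pgd at 1.60 stand highest in the CNS comparison, the Ad-c-Rel values stay between -0.18 and 0.05, and G6pdx at -0.90 and Pgd at -0.68 are the lowest values of the miR-21-/- comparison.

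Summed over the arm, oxidative genes had 168 and 174 CPM in miR-21-/- cells, against 248 and 239 CPM in control cells. Non-oxidative genes had 491 and 566 CPM in miR-21-/- cells, against 575 and 576 CPM in control cells. The oxidative sum was clearly apart and the non-oxidative sum narrowly so. The oxidative share of counts was 25.5% (exact binomial 95% interval 24.9 to 26.0) and 23.5% (23.0 to 24.1) in miR-21-/- cells, against 30.1% (29.6 to 30.6) and 29.3% (28.8 to 29.9) in control cells. Both miR-21-/- shares lay below both control shares, in contrast to the tissue and c-Rel pairs, whose shares overlapped; no test of the share was made. The 4 TH17 genes also lay lower in sum, 125 to 427 CPM in miR-21-/- and 1205 to 1722 CPM in control cells, with 0 of 4 called, and cell cycle genes overlapped at 1747 to 2605 CPM in miR-21-/- and 1486 to 2071 CPM in control cells. Their part in the G6pdx and Pgd values was not tested.

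**Figure D3:**
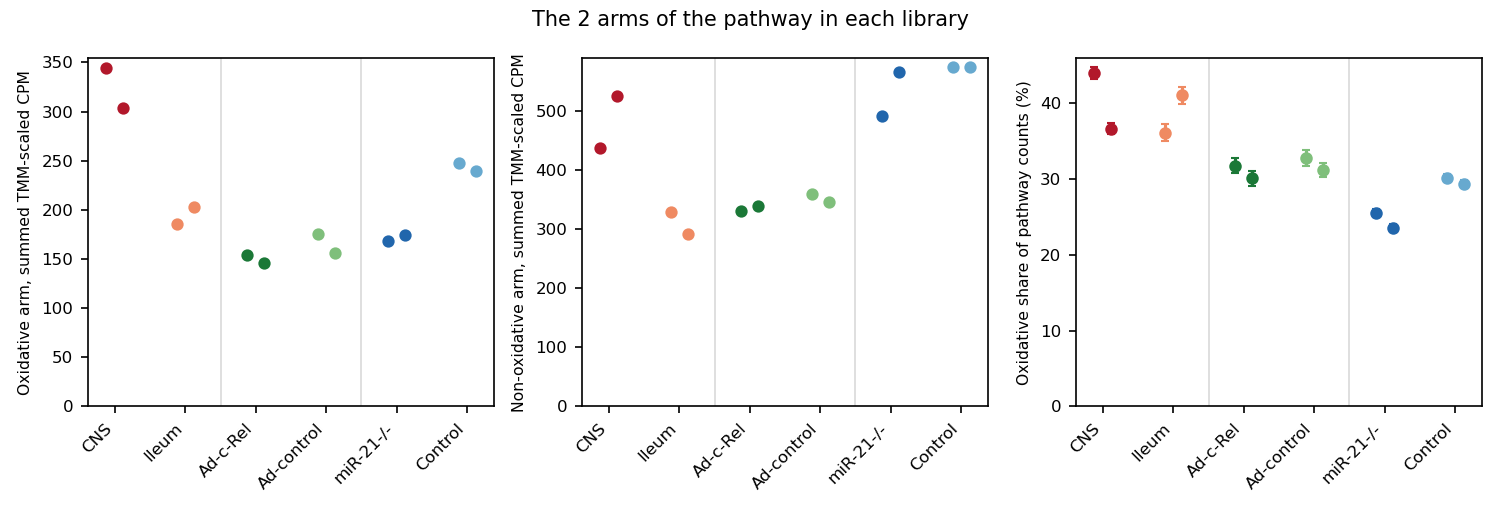
Summed level of the oxidative and the non-oxidative arm in TMM-scaled CPM and the oxidative share of the pathway's counts in percent, for each of the 12 libraries, with exact binomial 95% intervals on the share. The share lies at 23.5% to 25.5% in miR-21-/- libraries and 29.3% to 30.1% in control libraries, while CNS and ileum libraries cross between 36.1% and 44.0%.

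None of the neighbouring genes passed edgeR in miR-21-/- cells in the fit as reported, and those of smallest p are given by their values. Under some alternative settings Me2, Aldh1l2, Prdx1 and Pgm2, among others, passed as G6pdx and Pgd did. Such calls were thus not particular to G6pdx and Pgd. Pgm2 had 240 and 282 CPM in miR-21-/- cells, against 377 and 423 CPM in control cells (edgeR adjusted p = 0.146). Dera, which splits deoxyribose 5-phosphate, had 20.7 and 17.4 CPM in miR-21-/- cells, against 26.5 and 25.2 CPM in control cells (edgeR adjusted p = 0.213). Of the 8 side-branch genes tested, 7 had a value below 0, with a median log2 fold change of -0.45 against -0.02 for all genes. Among other NADPH sources, Me2, a mitochondrial malic enzyme that works mainly with NAD, had 137 and 159 CPM in miR-21-/- cells, against 274 and 332 CPM in control cells (log2 -1.04, edgeR adjusted p = 0.117). Aldh1l2, a mitochondrial folate enzyme, had 6.08 and 4.94 CPM in miR-21-/- cells, against 13.7 and 13.4 CPM in control cells (log2 -1.30, edgeR adjusted p = 0.124). Both were lower in each miR-21-/- library, although 6 of the 12 genes of this list lay above 0 and 6 below, with a median of 0.01.

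The medians of the remaining lists lay below that of all genes, -0.02, and that of the regulators lay furthest from it. Among 15 genes of ribose 5-phosphate use the median log2 fold change was -0.09. Prps2 had 81.2 and 92.6 CPM in miR-21-/- and 68.9 and 60.1 CPM in control cells (edgeR adjusted p = 0.181), and Dhodh, of pyrimidine synthesis, had 7.92 and 6.15 CPM in miR-21-/- and 12.9 and 9.29 CPM in control cells (edgeR adjusted p = 0.235). Among 16 glutathione and thioredoxin genes the median was -0.08. Prdx1, a peroxiredoxin, had 68.2 and 46.8 CPM in miR-21-/- and 105 and 90.1 CPM in control cells (edgeR adjusted p = 0.157), and Gss, glutathione synthetase, had 43.4 and 51.2 CPM in miR-21-/- and 34.1 and 33.1 CPM in control cells (edgeR adjusted p = 0.158). Among 10 regulators the median was -0.19, with 3 above 0 and 7 below. Hmox1, a target of Nrf2, had 13.3 and 16.6 CPM in miR-21-/- and 20.2 and 27.1 CPM in control cells (edgeR adjusted p = 0.185), and Hif1a had 1136 and 920 CPM in miR-21-/- and 1345 and 1313 CPM in control cells (edgeR adjusted p = 0.306).

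**Figure D4:**
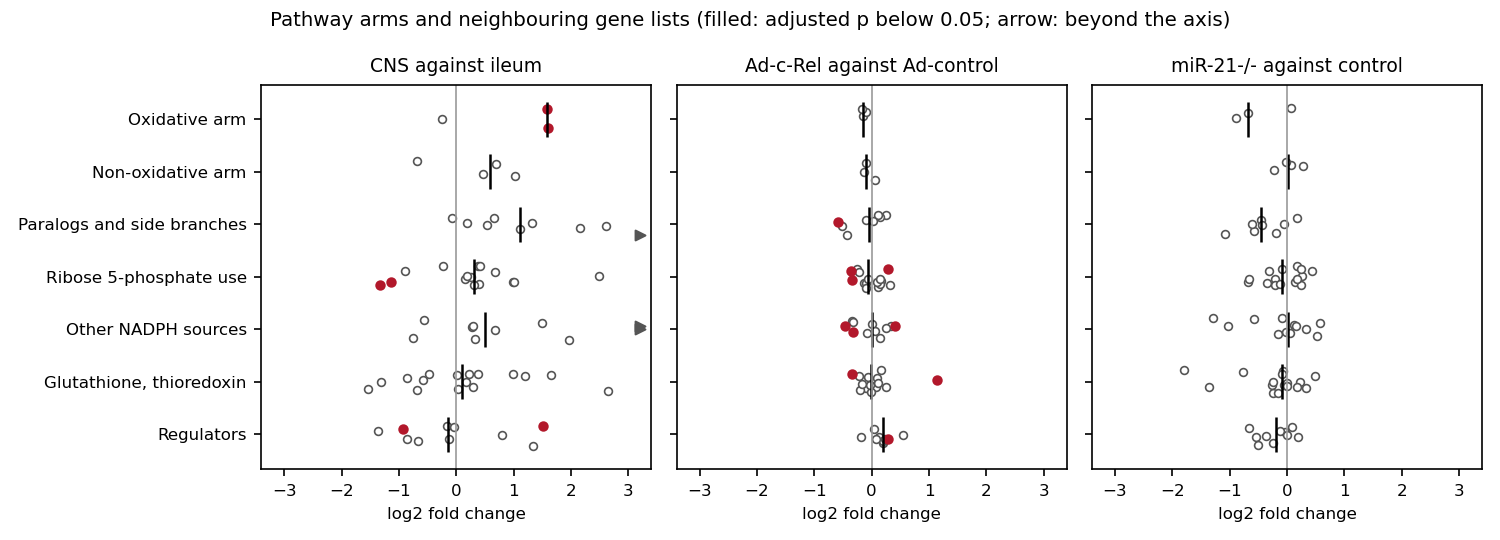
Log2 fold changes of the genes in the 2 arms and the 5 neighbouring lists in the 3 comparisons, 1 point a gene, filled where called, with each list's median as a bar and values beyond 3.2 drawn as arrows at the edge. The oxidative arm has its median at 1.58 in the CNS comparison, -0.16 in the Ad-c-Rel comparison and -0.68 in the miR-21-/- comparison, and the non-oxidative arm at 0.58, -0.11 and 0.03.

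Across the 6 groups, levels are described in plain CPM, since TMM was fitted within pairs. Library kit, where it is given, cell source and culture change with the pair. In differences between pairs they cannot be told apart. The G6pdx span also lies inside that of Ikbkg, and the strand setting of the counting is not given. G6pdx averaged 109 CPM in CNS and 113 CPM in ileum libraries, 54.1 CPM in Ad-c-Rel and 63.0 CPM in Ad-control cells, and 36.3 CPM in miR-21-/- and 70.2 CPM in control cells. Both sorted groups were highest, overlapping each other and standing apart from the cultures. Control and Ad-control cells overlapped, and miR-21-/- cells were lowest, with no overlap with any other group. Pgd averaged 145 CPM in CNS and 41.5 CPM in ileum libraries, 43.8 CPM in Ad-c-Rel and 51.6 CPM in Ad-control cells, and 70.3 CPM in miR-21-/- and 118 CPM in control cells. CNS libraries were highest and ileum libraries lowest, the ileum overlapping Ad-c-Rel only. Pgls averaged 93.8 CPM in CNS and 27.3 CPM in ileum libraries, 49.1 CPM in Ad-c-Rel and 54.8 CPM in Ad-control cells, and 60.7 CPM in miR-21-/- and 60.8 CPM in control cells. Control, miR-21-/- and Ad-control cells overlapped in the middle of that order, between CNS at the top and ileum at the bottom.

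In the non-oxidative arm the orders differed from gene to gene. Taldo1 averaged 293 CPM in CNS and 158 CPM in ileum libraries, 60.9 CPM in Ad-c-Rel and 68.2 CPM in Ad-control cells, and 73.2 CPM in miR-21-/- and 78.0 CPM in control cells, with no overlap between neighbours in the order. Rpe was highest in the TH17(β) cultures and lowest in ileum libraries, with 47.0 CPM in CNS and 20.2 CPM in ileum libraries, 102 CPM in both Ad-c-Rel and Ad-control cells, and 69.0 CPM in miR-21-/- and 60.0 CPM in control cells. Only the Ad-c-Rel and Ad-control libraries overlapped in its order. Tkt averaged 174 CPM in CNS and 109 CPM in ileum libraries, 165 CPM in Ad-c-Rel and 190 CPM in Ad-control cells, and 350 CPM in miR-21-/- and 428 CPM in control cells, where the CNS and Ad-control libraries overlapped. Taldo1 counts stood to Tkt counts as 1.51 and 1.84 to 1 in CNS and 1.12 and 1.93 in ileum libraries, 0.343 and 0.396 in Ad-c-Rel and 0.337 and 0.385 in Ad-control cells, and 0.215 and 0.204 in miR-21-/- and 0.184 and 0.181 in control cells. Above 1 in every sorted library and below 0.4 in every culture, this ratio compares counts, not counts per length. Sorted libraries and miR-21 cultures also differ in kit, and the kit of the Ad libraries is not given.

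Rpia stood apart by the pair rather than by condition. It averaged 23.4 CPM in the 4 TH17(23) libraries and 1.09 CPM in the other 8, a ratio of 21.6, and 74 of 8749 genes of at least 10 CPM in the TH17(23) libraries had as large a ratio. The next largest ratio among the members was that of Tkt, 2.44. The line of reads with several alignments also held 0 in these 4 libraries and 2.25% to 3.52% of each table in the other 8, and library kit, culture and this line cannot be told apart here. Group averages differed by 3.10 times (G6pdx) to 5.06 times (Rpe) from lowest to highest for the other 6 members.

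The spread between replicates was also uneven. Without Rpia, the larger replicate was at most 1.57 times the smaller in CNS (G6pdx) and 1.55 times in ileum libraries (Tkt), 1.12 times in Ad-c-Rel (Pgd) and 1.16 times in Ad-control cells (Pgls), and 1.30 times in miR-21-/- (G6pdx) and 1.14 times in control cells (G6pdx). For a single library at its group's mean count, counting error was at most 5.46% for these 6 genes, in ileum libraries. The widest gaps between sorted replicates were thus far larger than counting error.

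The genes whose pattern over the 12 libraries was most like each member's were found by Pearson's r of log2(CPM + 1) among 9054 genes of at least 10 CPM. The libraries share kits and cultures within pairs, so r mainly follows differences between pairs and is a description. For G6pdx they were Armc5 (r = 0.969) and Emc10 (0.964), for Pgls Crat (0.973) and AB124611 (0.933), and for Pgd Clec16a (0.950) and Adcy7 (0.942). For Rpia they were Celsr1 (0.992) and Epn1 (0.989), for Rpe Usp33 (0.988) and Nit2 (0.987), for Tkt Ksr1 (0.993) and Brwd3 (0.984), and for Taldo1 Csf2ra (0.990). No member was among the genes most like another member, but Rpia, below 10 CPM on average, was not among the genes searched. Csf2ra, a receptor chain of GM-CSF known from myeloid cells, followed Taldo1, whose levels were highest in the CNS libraries that also held the most myeloid marker RNA. The part of myeloid cells in the Taldo1 values was not tested.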

How the data were processed

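RNA was measured in 12 libraries, 2 in each of 6 groups; the 8 ATAC-seq samples were not used. The authors deposited raw counts per gene symbol; TopHat2 2.1.0, Bowtie2 and HTSeq 0.11.0 are listed for mm10 in the submitters' processing notes, beside Trim Galore 0.4.4, CASAVA 1.4, HOMER, SAMtools and DESeq2, without saying which step used which. Per the labels' protocols, SMART-Seq v4, made for low input, served for the sorted cells and stranded TruSeq for the miR-21 cultures; which kit the Ad libraries used, and the strand setting, the sources used here do not give. Lines that name no gene held 14.7% to 26.1% of each table and stayed out of library sizes and tests.

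Each pair's 4 libraries were fitted with edgeR 4.0.16 (R 4.3.3; filterByExpr, TMM, quasi-likelihood F test, two-sided), with p-values adjusted by Benjamini-Hochberg over all genes tested and a threshold of 0.05. The SE was taken as the absolute log2 fold change divided by the root of F. The fit was run on simulated counts to check the direction and size of fold changes. That check did not require changed genes to be called, so it does not show how small a change can be found. Alternatives were DESeq2 1.42.0, other size factors, no filter, all 12 libraries in 1 fit, a replicate block, leaving out each library, and for CNS and ileum scaling to T cell genes. Genes named are the 7 members, per list up to 3 called genes or, with none called, the 2 of smallest p, and the 2 most alike genes per member; marker lists are given by sums. A few genes that these rules and lists name are not reported here, and the TH17 and B cell sums are taken without them. The members and lists were chosen with earlier results of these data known. Promoters and loci come from RefSeq GRCm38.p6, where all 7 members matched. Exon lengths were not used, so levels of different genes are not compared per length.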

Additional observations from a re-analysis of the deposited data

How the results depend on the processing

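Of 187 alternative values for the members' fold changes, 159 kept their direction and side of the threshold, 13 passed it newly, 6 lost it and 9 turned in sign. In CNS against ileum, the log2 fold change of G6pdx turned to 0.19 with T cell scaling, and that of Rpia ran from -1.33 to 0.47 with a library left out, positive without ileum replicate 2. For Ad-c-Rel, Pgls ran from -0.205 to 0.0133 (positive without Ad-control replicate 1) and Rpe from -0.0214 to 0.121 (negative without Ad-c-Rel replicate 2). For miR-21-/-, Pgls ran from -0.0741 to 0.231 (negative without miR-21-/- replicate 2), Rpia from -0.19 to 0.322 (negative without miR-21-/- replicate 1 or control replicate 2) and Taldo1 from -0.0897 to 0.0775 (positive without the same libraries). None of these was called in the comparison as reported. The 1163 genes called in CNS against ileum became 3551 with DESeq2, 2413 with no filter, 4000 with all 12 libraries in 1 fit and 893 to 1922 with a library left out, where 1922 is without ileum replicate 1. The 2 members called there became 4 with DESeq2, 4 with all 12 libraries in 1 fit and 0 to 2 with a library left out. The 1673 genes called for Ad-c-Rel became 1098 with DESeq2, 19 with all 12 libraries in 1 fit, 926 without Ad-c-Rel replicate 2, 935 without Ad-control replicate 1 and at most 1369 with another library left out; called members stayed at 0 under every alternative. The 0 genes called for miR-21-/- became 793 with DESeq2, 40 with no filter, 1 with all 12 libraries in 1 fit and 3 to 1327 with a library left out, where 1327 is without miR-21-/- replicate 1. Its 0 members became 2 with DESeq2 and 0 to 2 with a library left out. With 2 libraries a group, a lone library left by such a fit is assumed to vary like the others. In plain CPM the mean oxidative sum was 181 in ileum libraries, and the mean non-oxidative sum 328 in Ad-c-Rel and 589 in control cells. The causes were not tested. The labels do not say that replicate numbers pair libraries; deviations of the same number correlated at 0.08 (CNS and ileum), 0.11 (Ad) and 0.66 (miR-21) over 2 pairs each. With the replicate number as a block, called members numbered 1 for CNS (Pgd; Pgls had edgeR adjusted p = 0.0509), 0 for Ad-c-Rel and 3 for miR-21-/- (G6pdx 1.63e-05, Pgd 7.64e-05 and Rpe 0.0382), and called genes 2802 for Ad-c-Rel and 4807 for miR-21-/-. Oxidative shares per kilobase of transcript were not run, since exon lengths were not used. Rpia's counts in the CNS, ileum and Ad libraries are too few to show a difference of moderate size.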

Other observations

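Genes of the side branches had counts in some sorted libraries and none in their replicates. Tigar, a fructose bisphosphatase known to favour the pathway, had 141 and 583 counts in CNS libraries and 121 and 0 in ileum libraries. Shpk had 101 and 380 counts in CNS libraries and 33 and 0 in ileum libraries. Tktl1, a transketolase-like gene, had 34 and 0 counts in CNS libraries and 11 and 0 in ileum libraries, each time in replicate 1. The cultures held Tigar and Shpk in every library, Tigar at 176 and 182 counts in Ad-c-Rel and 137 and 190 in Ad-control cells and at 727 and 287 in miR-21-/- and 1079 and 577 in control cells. The absence of Tigar and Shpk was seen only in ileum replicate 2, the library with the fewest genes that had a count. G6pd2, an autosomal copy of G6pdx, had 1 count in all, in an ileum library.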
